A study of Mus musculus with 4 samples.

Results

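Constant loops without gene ends are chromatin loops that were called in every library of the series and whose anchors lie away from the ends of protein-coding genes. Loops of the 4 deposited lists were pooled, and loops whose anchor midpoints both lay within 20 kb were joined into connected sets, each counted as 1 distinct loop. A distinct loop was a member if all 4 lists held it and no end of a protein-coding gene lay within 2.5 kb of either anchor in any library. There were 1400 such loops, which is 10.8% of 12920 distinct loops and 36.3% of the 3859 loops called in all 4 libraries. The other constant loops were 1686 with a gene end at 1 anchor and 773 with gene ends at both anchors. Presence in all 4 lists and distance to gene ends chose the members, so both are descriptions here: the members were chosen by calls that rest on the observed and expected contacts of every library.

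The loops were mapped by Micro-C, a chromosome conformation assay in which chromatin is cut with micrococcal nuclease and ligated, in mouse granulosa cells, the somatic cells that surround the oocyte. The hCG group was collected 6 h after 5 IU of human chorionic gonadotropin (hCG), which acts on the receptor of luteinizing hormone (LH). The PMSG group is labelled 0 h after hCG, with no dose of hCG stated. All mice were 21 days old and had been primed with 5 IU of eCG, a gonadotropin of pregnant mare serum (PMSG) that makes follicles grow, for 46 h by one label and 44 h by another. Cells were released by puncture of the ovaries, so cells of other ovarian types could be present. There were 2 libraries in each group, each merged from 2 to 3 technical replicates, and the labels used here give neither strain nor number of mice. Gene positions are those of RefSeq on GRCm38.p6, the assembly named mm10 in the lists.

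As background, most such loops in mammals form when the cohesin ring extrudes chromatin and stops at the protein CTCF bound at both anchors, usually with the binding motifs pointing toward each other. Loops of this kind mark the borders of insulated domains, within which enhancers and promoters meet more often. Loops between promoters and enhancers form another class, with an anchor at a gene start by definition. An anchor away from the ends of protein-coding genes may hold a CTCF site, an enhancer, another transcript start or none of these. The loop lists do not tell these apart.

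The 4 lists held 7664 and 7935 loops in the hCG libraries (hCG1 and hCG2) and 8305 and 6533 in the PMSG libraries (PMSG1 and PMSG2). Members took 18.4% and 17.8% of the hCG lists and 16.9% and 21.5% of the PMSG lists. Contacts at called pixels summed to 311016 and 349717 in the hCG libraries and to 393852 and 272470 in the PMSG libraries, so PMSG1 was the deepest. The median member pixel held 24 and 26 contacts in the hCG libraries and 29 and 25 in the PMSG libraries, so the ratio of a single loop carries a large counting error. Loop lists hold no RNA, and the cell type could only be checked by loops at the ends of marker genes. Of 9 granulosa markers, 5 and 7 had a loop in the hCG libraries and 6 and 3 in the PMSG libraries, against at most 1 of 4 immune markers and 1 of 5 endothelial markers in each library. Of 6 theca and stroma markers, 3 or 4 had a loop in every library, and of 4 oocyte markers 2 and 1 had one in the hCG libraries and 1 and 2 in the PMSG libraries, so these counts do not set granulosa cells apart from theca, stroma or oocyte. Micro-C loops at a gene's end are not a measure of its expression.

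CTCF motifs could be read only at the few annotated transcript starts that lie inside an anchor, because the sequences used here cover 250 bases before to 50 bases after each start. Of the 1400 members, 159 (11.4%) held such a window, with 187 starts, of which 148 belonged to long noncoding RNAs (lncRNAs) and 39 to coding genes whose start lies away from both annotated gene ends. The CTCF core motif CCANNAGNNGGC, searched on both strands, was present in 14 of these 187 windows (7.49%, Wilson 95% interval 4.51 to 12.2%). The share was 4.72% at constant loops with a gene end at 1 anchor and 3.64% at those with gene ends at both, against 2.43% of all 32851 windows. For lncRNA starts alone the shares were 8.11% in members, 7.05% and 5.94% in the other classes and 2.58% overall. The intervals of the classes overlap, and the difference was not tested. In 13 of the 14 windows the motif ran toward the inside of the loop, and these 13 windows belonged to 11 of 12 loops. Gm33663 and Pdzd9 each gave overlapping windows that hold the same motif, so the windows are not independent and the interval treats them as if they were. At the other constant loops 22 motifs pointed inward and 8 outward with a gene end at 1 anchor, and 13 inward and 5 outward with gene ends at both.

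The windows below are shown because they hold the motif at the anchor of a member, with the motif in capitals, and are printed 5′ to 3′ on the strand of the transcript from RefSeq GRCm38.p6. The first 4 motifs point into their loop and the last, of Gm36208, points out.
Tbx3os2, chr5:119691169-119691468, minus strand: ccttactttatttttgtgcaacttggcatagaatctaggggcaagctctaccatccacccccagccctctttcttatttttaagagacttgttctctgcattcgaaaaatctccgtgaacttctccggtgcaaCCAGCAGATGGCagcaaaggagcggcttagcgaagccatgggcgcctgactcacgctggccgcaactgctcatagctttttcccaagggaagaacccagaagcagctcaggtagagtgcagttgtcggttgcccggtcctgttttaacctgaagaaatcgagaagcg
Gm33663, chr7:143466448-143466747, minus strand: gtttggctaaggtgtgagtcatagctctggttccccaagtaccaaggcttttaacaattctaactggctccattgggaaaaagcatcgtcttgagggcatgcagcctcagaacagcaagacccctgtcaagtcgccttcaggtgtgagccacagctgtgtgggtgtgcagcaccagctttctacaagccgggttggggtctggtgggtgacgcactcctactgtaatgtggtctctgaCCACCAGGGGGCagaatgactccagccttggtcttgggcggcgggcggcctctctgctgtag
Gm40029, chr11:67350403-67350702, minus strand: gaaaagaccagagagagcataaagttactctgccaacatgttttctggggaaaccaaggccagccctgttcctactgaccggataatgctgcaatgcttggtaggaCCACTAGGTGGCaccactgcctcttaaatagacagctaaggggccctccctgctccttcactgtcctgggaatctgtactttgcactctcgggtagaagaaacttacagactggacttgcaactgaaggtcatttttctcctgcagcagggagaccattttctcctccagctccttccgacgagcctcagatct
Gm30470, chr11:79224435-79224734, plus strand: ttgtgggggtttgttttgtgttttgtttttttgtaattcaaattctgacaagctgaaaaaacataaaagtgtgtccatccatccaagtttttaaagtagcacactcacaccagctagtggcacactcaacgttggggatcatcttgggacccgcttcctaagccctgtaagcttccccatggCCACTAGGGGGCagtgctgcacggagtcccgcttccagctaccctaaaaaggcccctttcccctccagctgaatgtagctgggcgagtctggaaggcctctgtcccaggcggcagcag
Gm36208, chr10:122792511-122792810, minus strand: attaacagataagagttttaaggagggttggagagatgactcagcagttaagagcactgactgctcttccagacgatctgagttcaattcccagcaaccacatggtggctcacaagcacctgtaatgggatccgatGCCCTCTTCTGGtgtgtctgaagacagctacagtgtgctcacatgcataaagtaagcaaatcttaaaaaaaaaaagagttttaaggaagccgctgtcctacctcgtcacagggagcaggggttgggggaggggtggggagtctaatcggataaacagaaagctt

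Tbx3os2 starts in the right anchor of a 910 kb loop that encloses only Tbx3, a T-box transcription factor, and its motif on the minus strand of the chromosome faces the gene. The observed over expected ratio is the contact count of a pixel divided by the count expected there from the donut of pixels around it. For the Tbx3 loop it was 8.85 and 12.004 in the hCG libraries and 8.42 and 9.97 in the PMSG libraries. The first hCG and the last PMSG value come from 10 kb bins and the others from 5 kb bins. Gm33663 starts in the right anchor of a 315 kb loop around Cdkn1c, an imprinted inhibitor of the cell cycle, and the left anchor of that loop lies in Kcnq1. This loop had 20 and 35 contacts in the hCG libraries and 46 and 21 in the PMSG libraries, or ratios of 11.3 and 13.02 against 9.25 and 9.79. The loop at Gm40029 spans 240 kb around the myosin heavy chain genes Myh1, Myh2, Myh4 and Myh8, and that at Gm30470 spans 70 kb around Wsb1. Gm36208 lies at the right anchor of a 240 kb loop with that anchor inside Ppm1h, a protein phosphatase gene. Such a match is a description of the letters and not of a bound site.

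The members spanned long distances. Their median span, from anchor midpoint to anchor midpoint, was 225 kb in each of the 4 libraries (225 ± 0 kb in hCG and 225 ± 0 kb in PMSG, SD, n = 2 each), with quartiles of 130 and 380 kb. Since matching within 20 kb chose the members, close spans between libraries are partly fixed by the rule, and 308 loops (22.0%) had exactly the same span in all 4. The median was 168 ± 2.89 kb (SD, n = 4 libraries) for constant loops with a gene end at 1 anchor and 125 ± 0 kb for those with gene ends at both. The order held in the smallest bins, where members had medians of 175 and 175 kb in the hCG libraries and 175 and 180 kb in the PMSG libraries, against 125 to 135 kb and 90 to 100 kb in the other classes. The SDs describe the libraries, and no test was made because the rule involves the genes that set the classes apart.

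A larger share of members than of other constant loops crossed long intervals. Spans over 200 kb were found in 755 members (53.9%, Wilson 95% interval 51.3 to 56.5%), against 41.6% with a gene end at 1 anchor and 25.7% with gene ends at both. Loops over 1000 kb numbered 51 (3.64%), against 2.25% and 1.29%. Only 97 members (6.93%) were 60 kb or shorter, against 10.3% and 15.4%. The 217 loops without gene ends that both hCG lists and neither PMSG list held had a median span of 105 kb, and 31.3% of these were 60 kb or shorter. Fewer of them were called in the smallest bins, with 28 in hCG1 and 40 in hCG2 in 5 kb bins. In those bins their medians were 75 and 80 kb, against 175 and 175 kb for members.

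**Figure D1:**
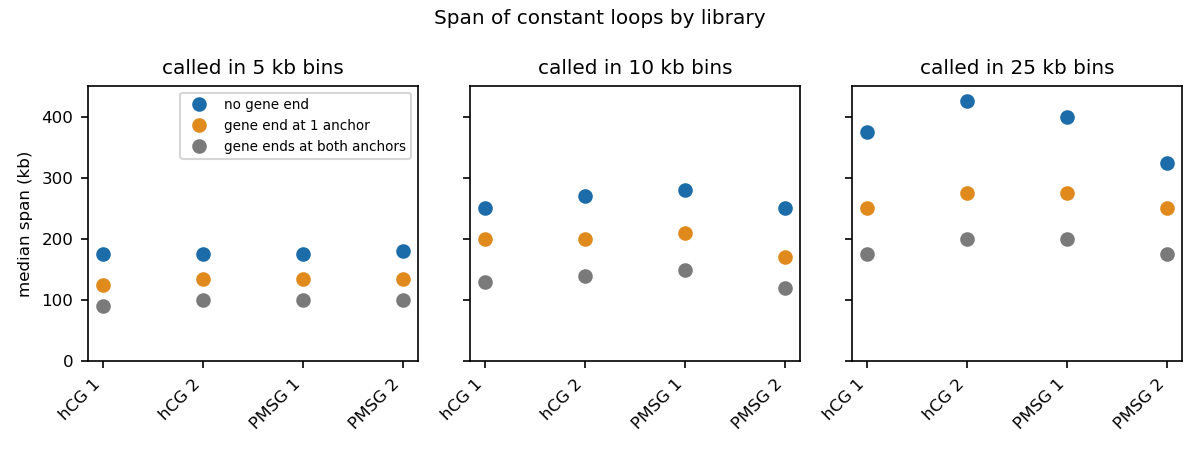
Median span (kb) of constant loops in each library, hCG left of PMSG, with a panel for each bin size of the calls (5, 10 and 25 kb) and a colour for each class. The loops without gene ends have the highest median in every library and bin size, between 175 and 180 kb in 5 kb bins and between 325 and 425 kb in 25 kb bins.

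The longest member joined 2 sites of chromosome 17, chr17:36230001-36235000 and chr17:39845001-39850000, 3615 kb apart, across 82 genes. These include the H2-M genes, nonclassical members of the major histocompatibility complex, Trim genes, Gabbr1, a large cluster of olfactory receptor genes and Esp genes, which encode secreted peptides. Its 5 kb pixel held 213 and 319 contacts in the hCG libraries and 159 and 224 in the PMSG libraries, where the donut gave 0.0526 and 0.0963 against 0.138 and 0.0686. Ratios of 4048 and 3312 in hCG and 1156 and 3265 in PMSG stand far from all other members. The groups do not overlap in the ratio, but the counts overlap, and the ratio divides by an expected signal of at most 0.138. Of the 435 pixels that all 4 lists held in the same bins, 27.8% had both hCG ratios above both PMSG ratios. What gives the pixel of the 3615 kb loop so many contacts was not tested. The second longest member, on chromosome 12 from 18260001 to 21600000, spanned 3330 kb and had ratios of 95.6 and 32.5 in the hCG libraries and 37.4 and 23.2 in the PMSG libraries, from bins that differed between libraries.

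Other long members ran between Abca13 and Vwc2 on chromosome 11 (1820 kb), around Klf6 on chromosome 13 (1810 kb) and around Nr4a2 and Gpd2 on chromosome 2 (1800 kb). Klf6 is a zinc-finger transcription factor, Nr4a2 an orphan nuclear receptor and Gpd2 a mitochondrial glycerol phosphate dehydrogenase. The Nr4a2 loop was called in 10 kb bins in every library, with 20 and 23 contacts in the hCG libraries and 26 and 28 in the PMSG libraries. Its ratios were 7.52 and 7.21 in hCG and 8.27 and 7.20 in PMSG, so the groups overlap. At the short end, members of 35 kb surrounded Gpx3, which encodes a secreted glutathione peroxidase, the Rnase9, Rnase11 and Rnase12 genes, and Adcy6, an adenylate cyclase. The Adcy6 loop had 25 and 37 contacts in the hCG libraries and 48 and 28 in the PMSG libraries, with ratios of 6.70 and 7.74 against 5.34 and 7.85.

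That members stood above their surroundings in every library follows from the rule, since loops are called where contacts exceed the expected signal. The median observed over expected ratio was 6.46 and 6.16 in the hCG libraries and 5.50 and 6.11 in the PMSG libraries, or 6.31 ± 0.209 in hCG and 5.80 ± 0.429 in PMSG (SD, n = 2 each). PMSG1, the deepest library, was the lowest, and the part of depth in this was not tested. The ratio falls with bin size, and 48.0% and 55.5% of members in the hCG libraries and 58.1% and 47.8% in the PMSG libraries were called in 5 kb bins. In those bins alone the members had 7.88 ± 0.517 in hCG and 7.25 ± 1.11 in PMSG. Constant loops with a gene end at 1 anchor had 7.28 ± 0.299 and 6.70 ± 1.215, and those with gene ends at both had 6.61 ± 0.347 and 6.16 ± 1.18. Members had the highest of the 3 medians in each library, and the gap to loops with a gene end at 1 anchor is smaller than the spread between the PMSG libraries. Gene ends were read at the anchors of every library, and wider bins reach more gene ends, so the rule itself may favour this order. All libraries shared a bin size in 42.3% of members, against 32.5% and 27.3% in the other classes. With gene ends read at the smallest-bin anchors only, the members' median ratio over all bins was 5.59, against 6.06. The part of the rule in the order was not tested.

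The gap between classes was smaller among loops of like span, and part of it was left. Among 5 kb calls of 100 to 200 kb, the members averaged 7.39 ± 0.818, loops with a gene end at 1 anchor 7.13 ± 0.865 and loops with gene ends at both 6.87 ± 0.825 (SD, n = 4 libraries). In that band and between 200 and 400 kb the members had the highest median of the 3 classes in all 4 libraries. Between 200 and 400 kb the members had 9.45 and 8.28 in the hCG libraries and 7.23 and 8.66 in the PMSG libraries, and loops with a gene end at 1 anchor had 8.70 and 7.92 against 6.88 and 8.49. Up to 100 kb the members were lowest in PMSG2, and over 400 kb they were lowest in hCG1 and below loops with a gene end at 1 anchor in PMSG2. Among members called at 5 kb, the ratio and the span had Spearman rho of 0.443 and 0.414 in the hCG libraries and 0.550 and 0.487 in the PMSG libraries. The same pixels supply the expected contacts, which were lower at longer spans, with rho of -0.607 and -0.665 in hCG and -0.690 and -0.626 in PMSG. These are descriptions over 669 to 813 loops of a library, which share its depth. The part of the expected contacts in the relation was not tested.

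**Figure D2:**
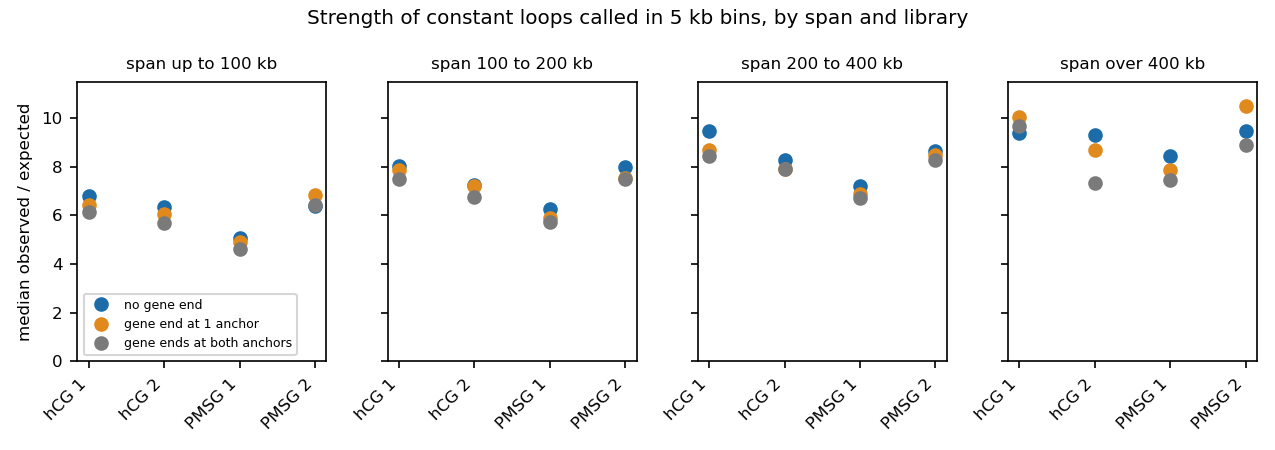
Median observed over expected contacts (donut, 5 kb calls) by span band, 1 point per library and class of constant loop, hCG left of PMSG. In all 4 libraries the members had a higher median at 200 to 400 kb than up to 100 kb, and up to 400 kb the classes lie closer to each other than the libraries do.

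By the smallest of their 4 ratios, 3 members were above 20 in every library, and these were the loops of 3615 and 3330 kb and a 475 kb loop on chromosome 17 between Btbd9 and Glp1r. This last loop encloses Glo1, which encodes the glyoxalase that removes methylglyoxal, and Dnah8, an axonemal dynein. It had 36 and 58 contacts in the hCG libraries, where 1.16 and 1.52 were expected, and 43 and 38 in the PMSG libraries, where 2.07 and 1.34 were expected. A 110 kb loop on the X chromosome at chrX:76830001-76840000 had 48 and 62 contacts in the hCG libraries and 43 and 52 in the PMSG libraries, in 10 kb bins, with no protein-coding gene within 106 kb of either anchor. The 80 kb loop around Krt8 and Krt18, the keratin pair of simple epithelia, had 39 and 59 contacts in hCG and 59 and 30 in PMSG, or ratios of 15.4 and 19.2 against 11.3 and 13.6. The 260 kb loop around Nampt, which makes a precursor of NAD, had 28 and 33 contacts against 45 and 32, with ratios of 12.996 and 11.9 in hCG and 11.4 and 14.6 in PMSG.

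The strong loops also bounded gene clusters and empty stretches. A 360 kb loop on chromosome 3 enclosed 14 Sprr genes, which encode proteins of the cornified envelope, with ratios of 14.9 and 11.1 in the hCG libraries and 13.2 and 13.4 in the PMSG libraries. A 645 kb loop on chromosome 15 at 29110001 enclosed no gene, and the nearest gene ends, of Dnah5 and Ctnnd2, lay 638 and 413 kb from its anchors. A 955 kb loop on chromosome 14 surrounded Klhl1 alone and had 18 and 13 contacts in the hCG libraries, against 13 and 18 in the PMSG libraries. The ratios of the Klhl1 loop were 26.0 and 16.6 in hCG and 12.8 and 14.0 in PMSG. The groups overlap in the ratio at the Sprr loop and do not at the Klhl1 loop, where hCG is higher. At the Klhl1 loop the counts overlap, and the expected contacts were 0.692 and 0.782 in hCG and 1.02 and 1.28 in PMSG. Both hCG ratios were above both PMSG ratios at 27.8% of the 435 pixels that all 4 lists held in the same bins.

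Many members held no whole gene. A gene was counted as enclosed if it lay wholly between the inner edges of the anchors, and 670 members (47.9%, Wilson 95% interval 45.2 to 50.5%) enclosed none. The shares were 46.0% for constant loops with a gene end at 1 anchor and 28.8% for those with gene ends at both. Exactly 1 gene lay in 474 members (33.9%), and 2 or 3 in 211. Only 45 held 4 or more, and 5 held 10 or more. Per megabase enclosed, the members held 3.09 genes, against 4.38 and 11.0 in the other classes. When a gene counted as enclosed if its midpoint lay between the midpoints of the anchors, 19.2% of members enclosed none.

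**Figure D3:**
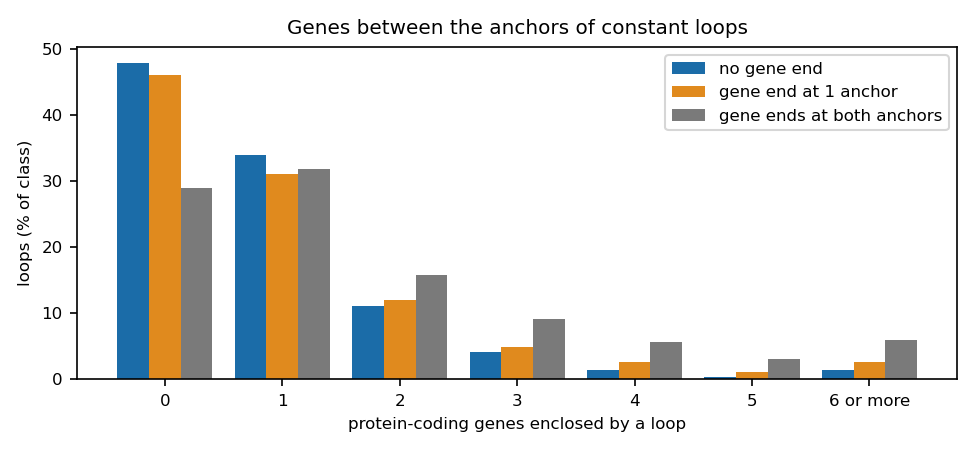
Share of loops (percent of the class) by the number of protein-coding genes wholly between the anchors, as bars for each class of constant loop. Of the loops without gene ends, 47.9% enclosed no gene and 33.9% enclosed 1.

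The low gene content held within bands of span up to 400 kb. Of members of at most 100 kb, 71.4% enclosed no gene, against 61.5% of loops with a gene end at 1 anchor and 40.2% with gene ends at both. Between 200 and 400 kb the shares were 43.2%, 37.8% and 20.7%. Above 400 kb the order of the first pair turned, with 29.3% of members and 31.3% of loops with a gene end at 1 anchor. The rule itself bars gene ends from the anchors and so favours gene-poor stretches. By chromosome, members made up between 27.2% of the constant loops, on chromosome 7 with 14.0 genes per megabase, and 44.3%, on chromosome 10 with 7.67.

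Away from gene ends did not mean away from genes. In 322 members (23.0%) both anchors lay in genes, in 683 (48.8%) 1 anchor did and in 395 (28.2%) neither did. The nearer anchor of a member lay a median of 13.6 kb from the closest gene end and the farther anchor 49.1 kb. Both anchors were over 50 kb from any gene end in 223 members and over 100 kb in 96. Only 65 members (4.64%) touched no protein-coding gene at all, with spans from 35 to 1340 kb and a median of 190 kb. An end of an lncRNA lay within 2.5 kb of an anchor in 368 members (26.3%), against 31.5% and 31.2% in the other classes, and an end of a miRNA gene in 16 (1.14%). At the limit of the rule, the gene ends just inside it were those of Gata6 at 2.51 kb, Aldh1a3 at 2.52 kb and Arl14ep at 2.53 kb, and just outside it those of Gpr157 at 2.498 kb, Stxbp6 at 2.48 kb and Fam214a at 2.47 kb.

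Many members lay inside 1 long gene. Both anchors fell in the same gene in 156 members (11.1%), against 3.02% of loops with a gene end at 1 anchor and 1.29% of those with gene ends at both. These 156 loops lay in 129 genes with a median length of 388 kb, where the median of all protein-coding genes is 17.3 kb. Of the 129 genes, 102 (79.1%) were longer than 200 kb, against 4.58% of all genes, and a long gene has more room for a loop. The gene with the most was Pde4d, a phosphodiesterase that breaks down cAMP, the second messenger of the LH receptor, with 4 loops of 115, 135, 200 and 315 kb. Its 115 kb loop had 24 and 24 contacts in the hCG libraries and 20 and 21 in the PMSG libraries, and its 135 kb loop 26 and 23 against 25 and 26, all in 5 kb bins. Kalrn, Rabgap1l, Rapgef4 and Trpm3 held 3 loops each.

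Of 25 long neural genes listed for their size, 7 (28%) held such loops, where 0.596% of all genes and 10.3% of the 990 genes longer than 200 kb did. The median length of the list was 1150 kb, and the part of length was not tested. The 7 were Cdh12, Lsamp, Ptprd, Kcnip4, Cntnap2, Ctnna2 and Dlg2. Most of these genes encode adhesion or synaptic proteins, and none is a marker gene of granulosa cells. The loop in Cntnap2 was the longest of them at 1640 kb, with ratios of 4.15 and 8.84 in the hCG libraries and 4.66 and 9.31 in the PMSG libraries, from bins of 25, 10, 25 and 10 kb. Lsamp and Dlg2 held 2 each. Pparg, a nuclear receptor induced in granulosa cells by the LH surge, held a loop of 50 kb. The Pparg pixel, in 10 kb bins throughout, had 54 and 60 contacts in the hCG libraries and 61 and 51 in the PMSG libraries, with ratios of 2.55 and 2.69 in hCG and 2.16 and 2.39 in PMSG.

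In all, 1203 of 21631 protein-coding genes (5.56%) lay wholly inside a member, 451 of them alone in it, and 105 inside 2 or more. Other constant loops enclosed 2836 genes (13.1%). The sets shared 193 genes, which is 16.0% of those in members and 6.81% of those in other constant loops. Gene lists of the ovary were then read against the 5.56%. Of 10 genes of the cumulus matrix, members enclosed 2 (Has2 and Ptx3) and other constant loops 0. Of 23 follicular granulosa genes, members enclosed 4 (Fst, Igf1, Kitl and Grem1) and other constant loops 4. In the other lists of granulosa function the members enclosed fewer than the other constant loops: 2 of 21 granulosa transcription factors (Foxo3 and Cebpa) against 8, 2 of 24 early LH response genes (Fos and Pparg) against 8, and 1 of 16 genes of steroid and cholesterol synthesis (Insig1) against 5. Developmental regulators gave 4 of 25, with Tbx5, Tbx3 and Isl1 among them, against 10 in other constant loops. Endothelial markers gave 2 of 10 (Pecam1 and Kdr) against 1. Members enclosed 0 of 10 theca and stroma genes and 0 of 11 oocyte genes, where other constant loops enclosed 3 of each, and neither kind of loop enclosed any of 7 immune and 25 long neural genes. These are counts without a test.

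Has2, the synthase of the hyaluronan that expands the cumulus, lay inside the largest nest of members. At 56330001 to 56340000 on chromosome 15, 4 loops shared a left anchor and spanned 405, 520, 1070 and 1175 kb, and no other anchor was shared by as many members. Has2 itself lies at chr15:56665627-56694546, inside all 4, and the 1175 kb loop also encloses the transporter gene Slc22a22. The 1175 kb loop was called in 25 kb bins in every library, with 43 and 70 contacts in the hCG libraries and 52 and 73 in the PMSG libraries. Its ratios were 2.499 and 3.55 in hCG and 2.65 and 3.77 in PMSG, and the groups overlap. The 520 kb loop was called in 25 kb bins in both hCG libraries and in 10 kb bins in both PMSG libraries, so its ratios of 4.05 and 3.83 against 5.48 and 4.36 cannot be compared.

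Ptx3, the pentraxin that cross-links cumulus hyaluronan, sat alone in a 230 kb loop called in 10 kb bins throughout. The Ptx3 loop had 23 and 27 contacts in the hCG libraries, where 5.55 and 5.07 were expected, and 32 and 21 in the PMSG libraries, where 4.97 and 4.43 were expected. The highest and lowest counts are both in PMSG, so the groups overlap. Fos, a subunit of the transcription factor AP-1, sat alone in a 140 kb loop whose left anchor lies in Tmed10. The Fos loop had 34 and 36 contacts in hCG, where 4.20 and 4.92 were expected, and 41 and 27 in PMSG, where 7.23 and 3.64 were expected. Its ratios were 8.09 and 7.32 in hCG and 5.67 and 7.41 in PMSG. The log2 fold change of hCG over PMSG at the Fos loop was 0.29, with an edgeR adjusted p of 0.890.

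Igf1, insulin-like growth factor 1, sat alone in a 300 kb loop of 25 kb bins with 59 and 92 contacts in the hCG libraries and 94 and 82 in the PMSG libraries. Its ratios were 2.56 and 2.73 in hCG and 2.36 and 2.52 in PMSG. Grem1, an antagonist of bone morphogenetic proteins made by cumulus cells, sat alone in a 310 kb loop from inside Fmn1 to inside Scg5, with ratios of 5.09 and 8.47 in hCG and 4.76 and 8.496 in PMSG, where the first hCG library was called in 10 kb bins and the others in 5 kb bins. Foxo3, a forkhead factor, sat in a 310 kb loop with ratios of 6.99 and 9.23 in hCG and 4.85 and 4.96 in PMSG, of which the last is from a 10 kb bin. Insig1, a regulator of cholesterol synthesis, sat in a 90 kb loop called in 5 kb bins in hCG and 10 kb bins in PMSG, so its ratios of 8.60 and 8.16 against 4.59 and 5.16 cannot be compared. Cebpa, a transcription factor that acts downstream of LH, shared a 145 kb loop with Cebpg and Gm45095, with 26 and 39 contacts in hCG and 51 and 21 in PMSG and ratios of 10.1 and 11.0 against 7.97 and 9.32.

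Kitl, the granulosa ligand of the oocyte receptor Kit, lay in members of 530 and 830 kb that shared an anchor, and Fst, which binds activin, lay with Ndufs4 in a member of 915 kb. The bins of these loops differed between libraries. Among genes of other cell types, Pecam1, an adhesion protein of endothelium, sat alone in a 95 kb loop with 35 and 32 contacts in the hCG libraries and 43 and 32 in the PMSG libraries. Kdr, the endothelial receptor of vascular growth factor VEGF, sat in loops of 250 and 550 kb. The 250 kb Kdr loop, in 5 kb bins, had 22 and 18 contacts in hCG and 15 and 13 in PMSG. Its ratios of 12.4 and 9.10 against 7.20 and 7.44 do not overlap, with hCG higher, as at 27.8% of the 435 pixels that all 4 lists held in the same bins.

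**Figure D4:**
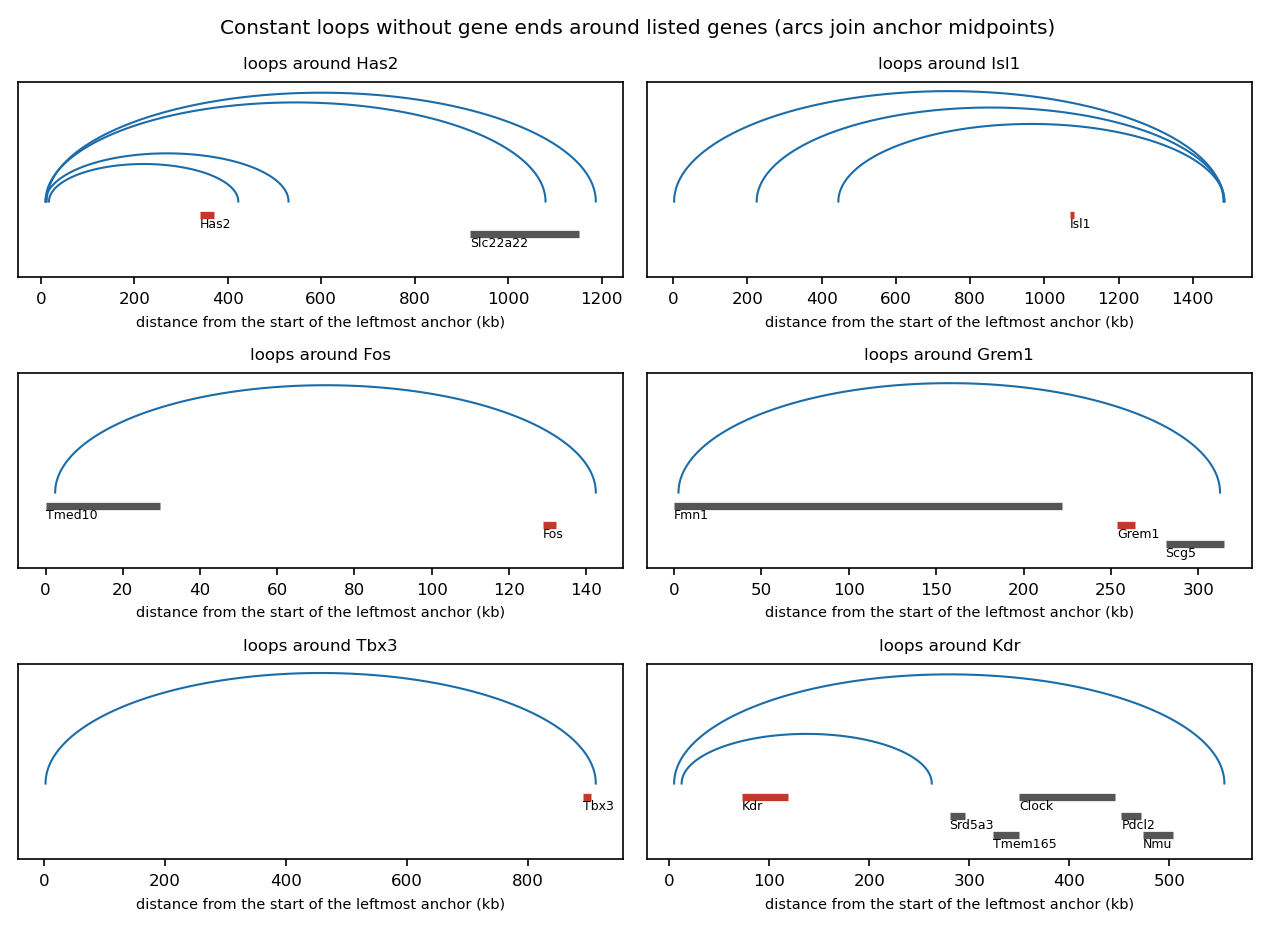
Loops without gene ends (arcs joining anchor midpoints) around Has2, Isl1, Fos, Grem1, Tbx3 and Kdr, against distance (kb) from the start of the leftmost anchor, with the named gene in red and other genes in grey, clipped at the plot's edge. The 4 arcs around Has2 share their left anchor, and the 3 around Isl1 share their right anchor.

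Nesting around a single gene also occurred at developmental regulators, which were picked out after their counts were seen. Isl1, a LIM homeodomain factor, was enclosed alone by members of 1040, 1260 and 1480 kb that shared their right anchor at 116710001 on chromosome 13. Bmp4, a bone morphogenetic protein, was enclosed alone by members of 570, 730 and 850 kb, and Ets1, an ETS transcription factor, by members of 350, 495 and 660 kb. The 495 kb Ets1 loop, in 5 kb bins, had 13 and 15 contacts in the hCG libraries and 18 and 22 in the PMSG libraries, where 1.05 and 1.18 against 1.95 and 1.39 were expected. The 350 kb Ets1 loop, in 10 kb bins, had 29 and 30 contacts in hCG and 26 and 20 in PMSG. Over all members, 720 (51.4%) shared an anchor with another constant loop, against 51.5% and 47.0% in the other classes, and 309 (22.1%) lay inside a longer constant loop, against 23.4% and 17.3%. Only 14 (1%) crossed another constant loop.

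Large gene families were enclosed unevenly. Members enclosed 80 of 1110 olfactory receptor genes (7.21%), near the 5.56% of all genes, in only 6 loops. The 3615 kb loop on chromosome 17 held 46 of them, and a 1010 kb loop on chromosome 1 held 13, beside the interferon-inducible Ifi genes. Of 109 keratin and keratin-associated genes, members enclosed 2 and other constant loops 50. Of 39 Hox genes, members enclosed only Hoxb13, and other constant loops 21, and of 68 histone genes 1 against 30. Members enclosed 21 of 375 solute carriers (5.60%), 10 of 397 Zfp zinc-finger genes, 7 of 355 vomeronasal receptors and 1 of 99 cytochromes P450, Cyp24a1, which inactivates vitamin D. None of 57 clustered protocadherins and 71 defensins lay in a member. Genes of a cluster share their loops, so these counts are not independent.

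Whether the members were stronger or weaker after hCG was asked on the 435 pixels that all 4 lists held in the same bins, of which 209 (48.0%) belonged to members. With the quasi-likelihood test of edgeR on observed counts, with the expected contacts as offset, 0 of 435 pixels passed an adjusted p of 0.05 (0% called), so 0 of 209 member pixels did. The lowest adjusted p was 0.331. At an unadjusted p under 0.05 there were 16 member pixels (7.66%), where 29 of all 435 (6.67%) were called. DESeq2 with the same offsets called 0, and 1 at an unadjusted p under 0.05. Leaving out a library gave at most 2 calls, namely the 3615 kb loop on chromosome 17 without hCG1 (log2 fold change 0.64), without hCG2 (0.93) and without PMSG2 (1.63), and a loop in Mbp without PMSG2 (1.13). Without PMSG1 there was no call. Each of these fits has 1 library in a group, which is assumed to vary like the other group. These calls therefore do not measure the spread between replicates of the group left with 1 library. The fitted dispersion was 0.00972 without hCG1, 0.00973 without hCG2 and 9.77e-05 without PMSG1 and without PMSG2, against 0.00428 with all libraries.

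The median log2 fold change of member pixels was 0.10, with 138 above 0 and 71 below, against 0.13 at the pixels of other constant loops. Without 1 library the members' median was 0.03 (without hCG1), 0.16 (without hCG2), 0.02 (without PMSG1) and 0.20 (without PMSG2), with 112, 157, 116 and 149 of the 209 above 0. The shift moved with the scaling. With the expected contacts as offset the median of all pixels was 0.12, and with library sizes and TMM factors alone it was 0.01 for all pixels and 0.00 for members, of which 107 were then above 0 and 102 below. Under both scalings the members lay close to the median of all pixels. In 63 member pixels (30.1%) both hCG ratios were above both PMSG ratios, where 27.8% of all pixels were, and in 17 (8.13%) both were below, where 8.05% of all were. Across the 592 members called in the same bin size in every library, the highest ratio was a median of 1.47 times the lowest.

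**Figure D5:**
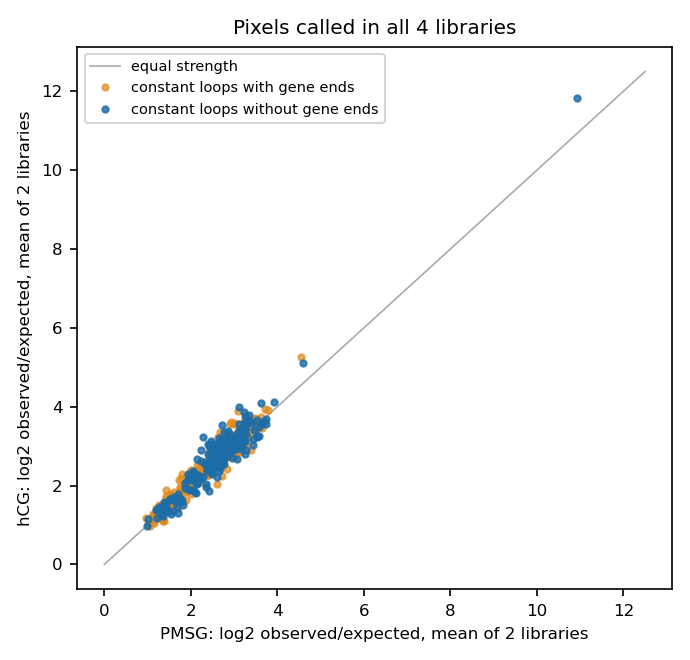
Log2 ratio of observed to expected contacts, averaged over the 2 hCG libraries (vertical), against that of the 2 PMSG libraries (horizontal) for 435 pixels, with loops without gene ends in blue. Points lie close to the line of equal strength, and the lone point at the upper right is the 3615 kb loop on chromosome 17.

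The member pixels with the smallest unadjusted p were the following. A 40 kb loop inside Mbp, which encodes myelin basic protein, had 42 and 59 contacts in the hCG libraries and 35 and 21 in the PMSG libraries, with ratios of 9.30 and 9.55 against 4.29 and 5.57. Its log2 fold change was 1.002, with an edgeR adjusted p of 0.331. A 180 kb loop around the chemokine genes Ccl3, Ccl4, Ccl6 and Ccl9 had 23 and 30 contacts in hCG and 21 and 18 in PMSG, with ratios of 17.01 and 14.7 against 7.47 and 10.1. The other 3 with positive values were loops at Cdk18 (0.70), Malt1 (0.79) and Tpm1 (0.69), with edgeR adjusted p of 0.553 each. On the negative side, a 575 kb loop with an anchor in Pik3r1, a regulatory subunit of PI3 kinase, had 69 and 80 contacts in hCG and 127 and 87 in PMSG, in 25 kb bins, and ratios of 2.45 and 2.49 against 3.32 and 3.20. Its log2 fold change was -0.40, with an edgeR adjusted p of 0.553. Loops at Fhdc1 (-0.41), Coq8a (-0.51), Col3a1 and Col5a2 (-0.38) and Sowahb (-0.23) followed. None of these 10 passed the threshold.

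The ratios of members were also set against each other between libraries. Over 427 members called in 5 kb bins in all 4 libraries, Pearson r of the log2 ratio was 0.837 between the hCG libraries, 0.753 between the PMSG libraries and 0.784 to 0.799 between libraries of different groups. Spearman rho ran from 0.496 to 0.601. These are descriptions across loops, which are not independent replicates and which include the chromosome 17 loop with its extreme ratio.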

How the data were processed

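Micro-C libraries of 2 hCG and 2 PMSG samples, grouped by their titles, were analysed from the deposited loop lists. Per the submitters' processing notes reads were handled with BWA and Juicer on mm10, and per the file headers the lists were written by juicer_tools 1.22.01. The sources used here do not state the settings of the loop caller or the read filters. The lists give, per the file headers, the observed count of contacts at each pixel, whole and not normalized. The expected signal of each pixel is deposited for the donut, bottom-left, horizontal and vertical neighbourhoods, and the q-value of each comparison is deposited too, all below 0.1. The deposited score is the number of pixels collapsed into a loop, and it entered no comparison. Loops were called per library in bins of 5, 10 and 25 kb, so a deeper library can pass more loops.

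Matching used anchor midpoints within 20 kb, and a loop's position is that of its call in the smallest bins. Of the members, 3.93% had anchors that varied by more than 20 kb. Genes are 21631 RefSeq protein-coding genes with both ends and no strand or exons, so an anchor inside a gene cannot be called exonic or intronic. The labels do not say that the libraries came from separate mice, so p-values measure only the spread between these samples, which may be technical. Loop strength was fitted with edgeR 4.0.16 in R 4.3.3 (log donut signal as offset, Benjamini-Hochberg over all pixels), with DESeq2 1.42.0 as an alternative. In a simulation over the 435 pixels, 200 of them were changed and the dispersion was set at 0.01. There 89% of 2-fold and 33% of 1.5-fold changes were recovered, and 3.17% of calls were false. So many changed pixels ease the adjusted threshold, and the dispersion fitted to the data was 0.00428. These rates are therefore not the power of the test in these data. Intervals of shares are Wilson intervals at 95%, and they and the contact counts cover counting error only. Other steps used Python 3.11.15, numpy 2.4.6, pandas 2.3.3, scipy 1.17.1 and matplotlib 3.10.9.

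The members and the gene lists were chosen with earlier results of these data known. Loops named were the 10 strongest by their smallest ratio, the 5 longest, the 5 shortest, the 5 with the most genes, those around or inside listed genes, the 5 smallest p of strength in each direction, the most shared anchor and the loops next to the 2.5 kb limit. A few loops that meet this rule are not reported here. The motif search at transcript starts, the loops at those starts and the genes nested in 3 or more loops were chosen after seeing the data. The labels do not say whether same-numbered libraries form pairs, so the main fit left the replicate number out. Deviations of same-numbered libraries from their group means had r = -0.0157 over the 435 pixels. This value cannot decide about pairing, because the counting error of single pixels is large.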

Additional observations from a re-analysis of the deposited data

How the results depend on the processing

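Against 1400 members, matching by anchor overlap gave 653, an FDR of at most 0.01 in all comparisons 903 and gene ends within 10 kb 849. Gene ends within 0 kb gave 1775 and gene ends read at the smallest-bin anchors only 2001, and leaving out a library gave 1492 to 1664. The median span of 225 kb became 218.75 and 239.375 kb with matches of 10 and 50 kb, 270 kb by overlap, 227.5 kb at the FDR of 0.01, 203.75 and 250 kb with gene ends within 0 and 10 kb and 200 kb where only the smallest-bin anchors were read for gene ends, and 215.833 to 225 kb without 1 library. The median ratio of 6.06 became 5.58 by overlap, 6.57 at the FDR of 0.01, 5.59 by smallest-bin anchors, 4.76 and 4.80 with horizontal and vertical expectations and 5.67 to 6.12 without 1 library. The 47.9% of members that enclose no gene became 54.5% with gene ends within 10 kb, 45.2% by smallest-bin anchors, 19.2% with gene midpoints between anchor midpoints, which changes the gene and the anchor limit together, and 46.9 to 48.9% without 1 library. The cause of these moves was not tested beyond the settings themselves. Pixels called stronger or weaker were 0 under each setting run except without 1 library, where they ranged from 0 to 2, all of them members, in fits with 1 library in a group, and the replicate block gave 0, with 17 at an unadjusted p under 0.05. With a median of 24 to 29 contacts at a member pixel the counting error is large, and the smallest change that could be detected was not determined.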
